A study of Homo sapiens with 7 samples.

Results

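The genes of cholesterol and fatty acid synthesis were followed in cells given PTH (parathyroid hormone) and in cells given PBS, the saline vehicle. The 38 members were named genes: 7 regulators, 16 enzymes of the sterol pathway, 4 genes of sterol transport and efflux, and 11 enzymes of fatty acid synthesis, elongation and desaturation. Each was found by its symbol among the 22062 rows of the deposited tables, where each had 1 row. Of the 38 members, 36 had a mean of at least 1 FPKM (fragment counts divided by transcript length and by the mapped fragments of the library) and were tested, and Mylip and Elovl6 were not.

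The groups were 4 libraries of LX2 cells treated with PTH and 3 libraries of LX2 cells treated with PBS. LX2 is an established human hepatic stellate cell line, all 7 libraries carry that label, and neither the hormone dose nor the time of exposure is given in the sources used here. The series title ties the PTH receptor to hepatic fibrosis through CREBL2, and the comparison asks how transcripts differ after the hormone. The identifiers of the tables are those of rat genes although the labels name a human line, so genes are given by rat symbols. The labels do not state separate cultures, so every p-value measures the spread between these libraries, and that spread may be technical. In bulk RNA, fewer cells of a type and less RNA per cell cannot be told apart.

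Cells make cholesterol from acetyl-CoA through mevalonate, isoprenoids, squalene and lanosterol. The transcription factors SREBF1 and SREBF2 are held in the endoplasmic reticulum by SCAP and the INSIG proteins when sterols are plentiful, and travel to the Golgi to be cut and released when sterols run low. SREBF2 drives mainly the sterol genes and SREBF1 mainly the fatty acid genes, while the oxysterol receptors NR1H2 and NR1H3 switch on efflux and SREBF1. Hepatocytes carry out most of the sterol and fatty acid synthesis of the liver, and quiescent stellate cells are known for storing retinyl esters in lipid droplets.

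The libraries differed in depth, in their mitochondrial share and along base composition. The depth itself is unknown, since FPKM are not counts, but the commonest ratio of low values put the PTH libraries at 1.30, 1.02, 0.922 and 0.766 times the depth of PBS library 1, and PBS libraries 2 and 3 at 0.941 and 1.06 times. Mitochondrially encoded mRNA took 0.867, 3.61, 2.40 and 3.03% of the summed FPKM in PTH libraries 1 to 4, against 5.87, 5.78 and 5.90% in PBS libraries 1 to 3. Of 15 stellate markers found, 10 averaged at least 1 FPKM, with Lrat and Reln at 0 in all libraries. Their summed level was 1365 to 1852 FPKM with PTH and 1089 to 1165 FPKM with PBS, and its part in the results below was not tested. Nearly all of that sum was Vim, Col1a1 and Col3a1. Dcn, another marker of the list, stood at 0.886 to 2.00 FPKM with PTH and 2.73 to 3.45 FPKM with PBS. Hand2, Ngfr, Col6a1, Pdgfra and Lum, all low, also had lower means with PTH, while Tagln, Des, Pdgfrb and Acta2 had higher ones. Acta2 itself stood at 0.918 to 2.03 FPKM with PTH and 0 to 1.80 FPKM with PBS. Of 10 hepatocyte markers 7, Alb among them, were at 0 in all libraries, and their sum did not pass 0.866 FPKM with PTH or 0.789 FPKM with PBS. Ptprc, the pan-leukocyte marker, and 4 of the other 7 leukocyte markers were listed at 0 throughout, and the sum was 13.1 to 18.7 FPKM with PTH and 14.7 to 20.9 FPKM with PBS. Endothelial markers summed to 2.05 to 6.07 FPKM with PTH and 3.27 to 4.86 FPKM with PBS. Cholangiocyte markers summed to 283.5 to 322.7 FPKM with PTH and 344.2 to 353.6 FPKM with PBS, nearly all of it Spp1, and their part in the results was likewise not tested.

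Upstream sequences of human counterparts were searched for elements through which this pathway and cAMP are known to reach genes, and a few are shown. They are the 250 bases before the transcription start in RefSeq (build GRCh38.p14), printed 5′ to 3′ on the gene's strand in lower case. Capitals mark a sterol regulatory element (SRE, searched as TCACNCCAC, with N for any base), the cAMP response element bound by CREB factors (CRE, TGACGTCA), the E-box CACGTG, or CCAAT, on either strand. SREBF1 and SCD are shown because they were the members that passed the test, SREBF2 because it alone held an SRE, and FADS1 and ELOVL5 because they alone held a full CRE. SREBF1 lies at chr17:17836987-17837236 on the minus strand, SREBF2 at chr22:41832855-41833104 on the plus strand and SCD at chr10:100346983-100347232 on the plus strand. FADS1 lies at chr11:61817004-61817253 and ELOVL5 at chr6:53348951-53349200, both on the minus strand.
SREBF1: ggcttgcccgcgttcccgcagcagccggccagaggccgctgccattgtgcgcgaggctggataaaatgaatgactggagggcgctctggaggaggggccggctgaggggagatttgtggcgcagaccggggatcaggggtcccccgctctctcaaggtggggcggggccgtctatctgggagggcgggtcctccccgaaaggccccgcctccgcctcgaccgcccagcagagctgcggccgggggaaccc
SREBF2: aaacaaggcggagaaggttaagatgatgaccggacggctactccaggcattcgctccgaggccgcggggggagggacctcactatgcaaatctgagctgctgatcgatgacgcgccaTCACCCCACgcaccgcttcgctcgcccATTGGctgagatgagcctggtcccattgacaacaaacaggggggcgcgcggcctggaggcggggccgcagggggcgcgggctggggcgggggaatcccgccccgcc
SCD: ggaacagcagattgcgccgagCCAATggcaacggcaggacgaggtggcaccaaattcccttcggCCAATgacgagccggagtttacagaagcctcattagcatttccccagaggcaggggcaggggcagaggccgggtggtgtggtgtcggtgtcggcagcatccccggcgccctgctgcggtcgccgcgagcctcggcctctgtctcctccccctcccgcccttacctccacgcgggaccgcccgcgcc
FADS1: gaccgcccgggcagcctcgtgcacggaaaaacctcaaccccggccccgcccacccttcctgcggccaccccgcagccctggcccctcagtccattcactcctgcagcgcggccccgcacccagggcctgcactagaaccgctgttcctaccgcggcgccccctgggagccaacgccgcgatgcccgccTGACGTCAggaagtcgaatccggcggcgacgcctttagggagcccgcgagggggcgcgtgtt
ELOVL5: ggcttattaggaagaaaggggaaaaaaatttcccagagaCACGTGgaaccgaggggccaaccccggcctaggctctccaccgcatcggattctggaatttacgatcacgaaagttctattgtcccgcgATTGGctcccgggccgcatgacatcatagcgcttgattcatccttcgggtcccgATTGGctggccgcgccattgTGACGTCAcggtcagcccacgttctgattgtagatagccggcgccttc
An upstream sequence was matched for 34 of the 38 members, all but Fdft1, Sqle, Fasn and Scd2. The SRE letters were in 1 of these 34, against 1.09% of the 27305 symbols of the table, and the CRE letters were in 2, against 2.03%. The E-box was in 5 of 34 (14.7%, against 7.73% of all symbols) and CCAAT, where NF-Y binds beside SREBF proteins at many sterol genes, was in 23 of 34 (67.6%, against 37.0%). The SREBF1 sequence held none of these motifs, and the SCD sequence held only CCAAT. A match is only a run of letters in this window, not a bound site.

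Most members of the pathway did not pass the test. PTH libraries had more Srebf1 and less Scd, and none of the 16 sterol pathway enzymes was called in either direction. Of the 36 tested members 1 rose and 1 fell, while 3.45% of all 10662 tested genes were called higher and 7.96% lower, 11.4% together. The test was limma on log2(FPKM + 1), and a call was an adjusted p under 0.05. The median log2 fold change of the members was 0.02, against -0.04 over all tested genes. Every PTH library lay above every PBS library in 6 members and below in 6, together 12 of 36, while the groups did not overlap in 33.4% of all tested genes (12.7% above and 20.8% below).

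The intervals bound how large a change these libraries allow. For 35 of the 36 members the 95% interval of the log2 fold change lay within 1 unit of 0, that is within a 2-fold change, Lss being the exception. For 22 of them it lay within 0.58 units, a 1.5-fold change.

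**Figure D1:**
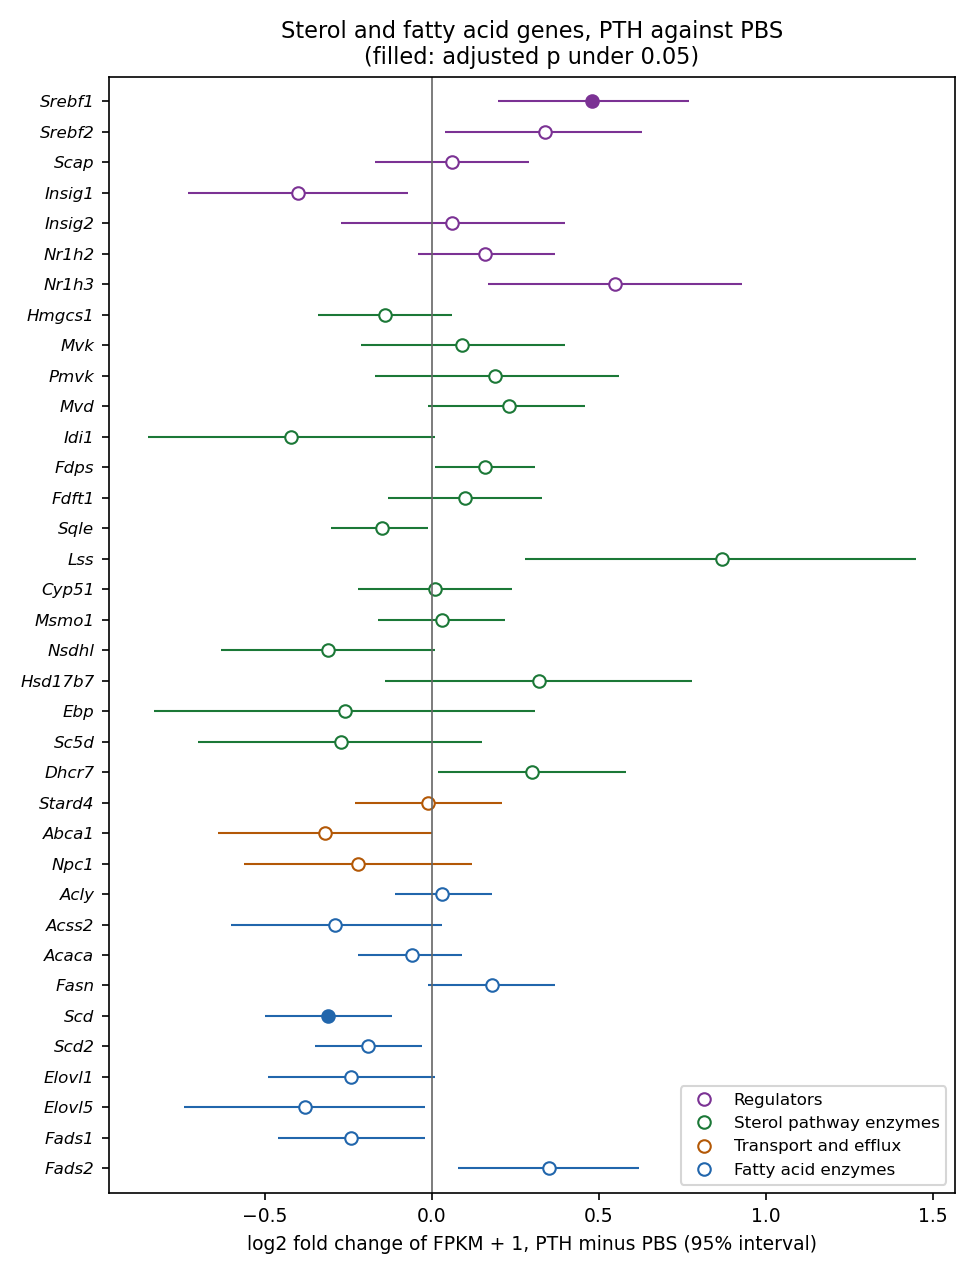
Log2 fold change of each tested member (x axis, PTH minus PBS, log2 of FPKM + 1) with its 95% interval as a bar, genes in the order of their roles from top to bottom, filled points for an adjusted p under 0.05. Filled points stand at Srebf1 (0.48) and Scd (-0.31), and the widest interval among the largest values is that of Lss, from 0.28 to 1.45.

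Among the regulators, Srebf1 passed the test and both SREBF genes were above the PBS range in all PTH libraries. Srebf1, the factor of the fatty acid arm, stood at 37.5, 28.3, 29.5 and 26.0 FPKM in PTH libraries 1 to 4, against 21.0, 19.98 and 22.8 FPKM in PBS libraries 1 to 3. The groups did not overlap, and PTH library 1 was the highest. Srebf1 rose by 0.48 ± 0.12 (SE) on the log2 scale with an adjusted p of 0.0450 in limma. Its mean was 30.4 ± 4.99 FPKM with PTH and 21.3 ± 1.45 FPKM with PBS (SD, n = 4 and 3), a ratio of 1.43. The call was kept without PTH library 1 or 2 and lost without any other library (adjusted p up to 0.166, log2 fold change between 0.38 and 0.55). Once the mitochondrial share entered as a covariate, the log2 fold change of Srebf1 was -0.07 (adjusted p = 0.885 in limma). With the replicate number as a block it was 0.55 (adjusted p = 0.0917).

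Srebf2, the factor of the sterol arm, was the most abundant regulator. It stood at 164.7, 114.1, 128.6 and 112.3 FPKM in PTH libraries 1 to 4, against 101.3, 98.5 and 104.5 FPKM in PBS libraries 1 to 3. All PTH values lay above the PBS values, with library 1 far above the other PTH libraries. Its log2 fold change was 0.34 ± 0.13 (SE) and missed the threshold (limma adjusted p of 0.110). Nr1h3, the LXR alpha receptor for oxysterols, was low in all libraries. It stood at 5.86, 4.06, 4.88 and 4.60 FPKM in PTH libraries 1 to 4, against 3.17, 2.31 and 3.56 FPKM in PBS libraries 1 to 3. The groups did not overlap, and the log2 fold change of 0.55 ± 0.17 (SE) had an adjusted p of 0.0638 in limma. Nr1h2, the LXR beta receptor, averaged 26.8 ± 2.43 FPKM with PTH and 23.8 ± 1.29 FPKM with PBS, and the groups overlapped.

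None of the proteins that retain or escort the SREBF factors gave a call. Insig1, which holds SCAP in the endoplasmic reticulum and is itself a target of SREBF proteins, stood at 21.5, 26.8, 18.5 and 17.5 FPKM in PTH libraries 1 to 4, against 28.1, 25.4 and 30.0 FPKM in PBS libraries 1 to 3. PTH library 2 lay inside the PBS range and the other PTH libraries below it. The log2 fold change was -0.40 ± 0.14 (SE) with an adjusted p of 0.0962 in limma, and between 0.0165 (without PTH library 2) and 0.249 (without PBS library 1) when 1 library was left out. Once the mitochondrial share entered as a covariate, the log2 fold change of Insig1 was -0.23 (adjusted p of 0.792), and with the replicate block -0.32 (0.233). Scap, the escort protein that senses sterols, stood at 11.3, 10.6, 12.9 and 10.8 FPKM in PTH libraries 1 to 4, against 10.9, 10.3 and 11.3 FPKM in PBS libraries 1 to 3. The Scap values overlapped, and the 95% interval of its log2 fold change ran from -0.17 to 0.29. Insig2, the second retention protein, averaged 8.79 ± 1.29 FPKM with PTH and 8.37 ± 1.32 FPKM with PBS. Within each library, Srebf2 exceeded Insig1 by 7.65, 4.26, 6.94 and 6.42 times in PTH libraries 1 to 4, against 3.60, 3.88 and 3.49 times in PBS libraries 1 to 3, a description of genes chosen after their values were seen.

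**Figure D2:**
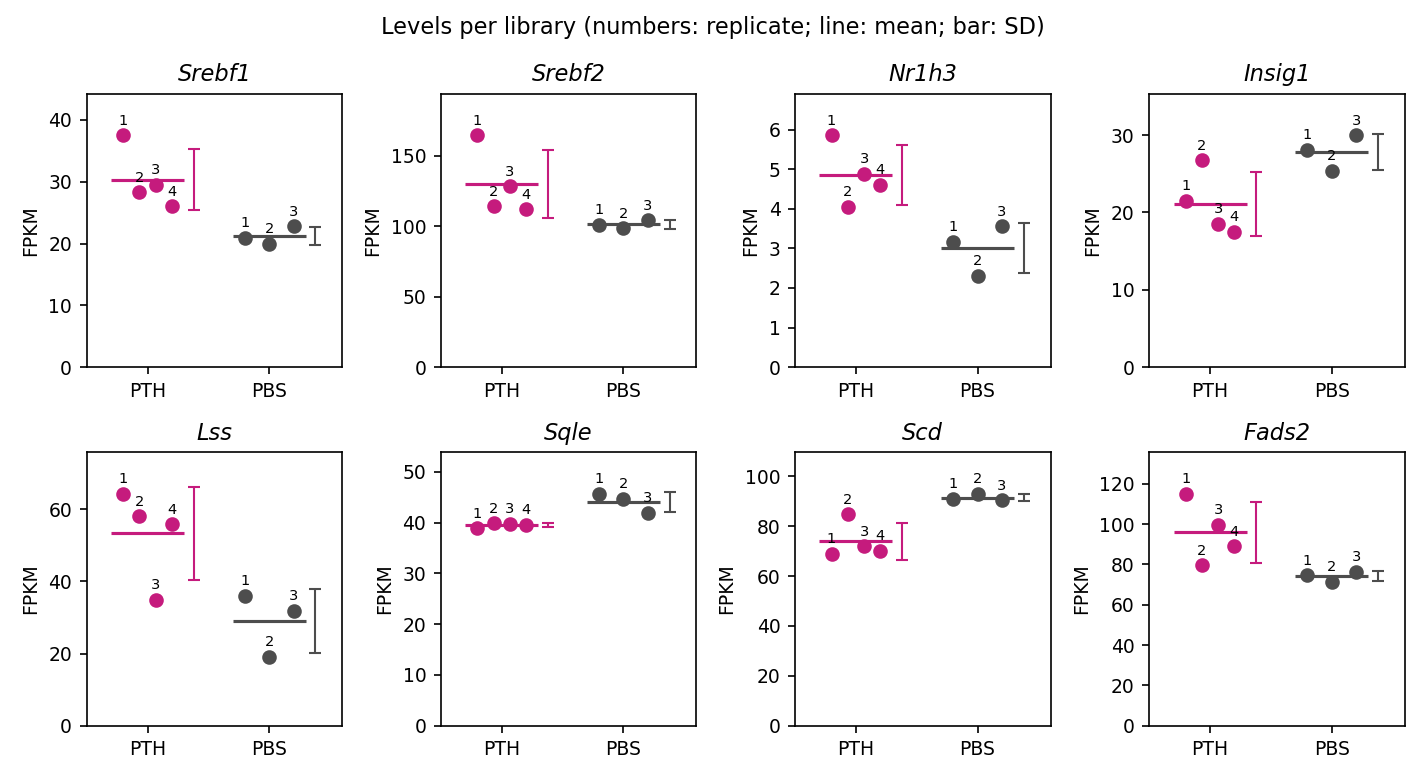
FPKM (y axis, from 0) of 8 members in each library, PTH on the left and PBS on the right of each panel, with replicate numbers beside the points, the mean as a line and the SD as a bar. Srebf1, Srebf2, Nr1h3 and Fads2 show all PTH points above the PBS points, Sqle and Scd all below, and Insig1 and Lss overlap.

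The sterol pathway enzymes, from the first committed step to the last reduction, gave no call in either direction. Of the 16 members, 10 had a log2 fold change above 0 and 6 below, with a median of 0.06. At an unadjusted limma p under 0.05 there were 3 higher and 1 lower, while over all tested genes 12.2% were higher and 21.7% lower at that level. Their summed level was 534.2, 536.5, 493.2 and 497.2 FPKM in PTH libraries 1 to 4, against 496.0, 445.4 and 498.3 FPKM in PBS libraries 1 to 3. The ranges of the sums overlapped.

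In the mevalonate segment the values were close. Hmgcs1, which makes HMG-CoA, averaged 32.9 ± 2.10 FPKM with PTH and 36.4 ± 3.42 FPKM with PBS. Mvk and Pmvk, the kinases of mevalonate and of phosphomevalonate, averaged 9.16 ± 1.59 and 18.5 ± 3.70 FPKM with PTH. With PBS these kinases averaged 8.46 ± 0.347 and 15.9 ± 1.87 FPKM. Mvd, the decarboxylase that follows them, averaged 18.7 ± 1.40 FPKM with PTH and 15.9 ± 1.80 FPKM with PBS. All 4 of these genes overlapped between the groups. Idi1, the isomerase that makes the starter of isoprenoid chains, was uneven among PTH libraries at 10.5, 20.7, 14.1 and 15.9 FPKM, against 19.99, 20.1 and 20.7 FPKM in PBS libraries 1 to 3. PTH library 2 sat with the PBS libraries and library 1 was lowest, and the log2 fold change of -0.42 ± 0.19 (SE) had an adjusted p of 0.158 in limma. Fdps, which joins the chains to farnesyl diphosphate, was the most abundant sterol enzyme at 179.5 ± 7.27 FPKM with PTH and 160.9 ± 9.52 FPKM with PBS. Its groups did not overlap, and its adjusted p was 0.131 in limma.

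At squalene and lanosterol the enzymes gave no call. Fdft1, squalene synthase, averaged 22.9 ± 2.74 FPKM with PTH and 21.2 ± 0.548 FPKM with PBS. Sqle, the rate-limiting squalene epoxidase, was nearly constant with PTH at 38.9, 39.9, 39.8 and 39.6 FPKM, against 45.7, 44.7 and 41.9 FPKM in PBS libraries 1 to 3. All PTH values were below all PBS values, but the log2 fold change of -0.15 ± 0.06 (SE) had an adjusted p of 0.126 in limma. Lss, which cyclizes the epoxide to lanosterol, stood at 64.3, 58.1, 34.9 and 55.8 FPKM in PTH libraries 1 to 4, against 36.0, 19.1 and 31.9 FPKM in PBS libraries 1 to 3. PTH library 3 lay inside the PBS range and the other PTH libraries lay above it. Lss had the largest log2 fold change of all members, 0.87 ± 0.26 (SE), with an adjusted p of 0.0598 in limma that ranged from 0.0517 to 0.617 over the alternatives. A limma fit of only the genes with a human counterpart transcript is not among these alternatives. That fit called 1 of the 16 sterol pathway enzymes higher, and Lss had the smallest p of the 16 in the test of all genes.

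Among the enzymes that turn lanosterol into cholesterol, the values overlapped except for 1 gene. Cyp51, the lanosterol demethylase, averaged 25.7 ± 3.10 FPKM with PTH and 25.3 ± 0.809 FPKM with PBS, and Msmo1, a methylsterol oxidase, 47.2 ± 4.08 and 46.2 ± 1.89 FPKM. Nsdhl, a decarboxylating dehydrogenase, was lower in each PTH library, at 8.13 ± 1.29 FPKM with PTH and 10.3 ± 1.10 FPKM with PBS, with an adjusted p of 0.159 in limma. Ebp, a sterol isomerase, averaged 20.7 ± 6.70 FPKM with PTH and 24.4 ± 5.32 FPKM with PBS. Its PTH libraries formed pairs, with 26.5 FPKM in libraries 1 and 2 and 15.5 and 14.4 FPKM in libraries 3 and 4. Sc5d, a desaturase, averaged 7.28 ± 2.018 FPKM with PTH and 8.82 ± 0.731 FPKM with PBS, and Dhcr7, the last reductase, 14.4 ± 1.71 and 11.5 ± 1.27 FPKM. Hsd17b7, a ketosteroid reductase, was near the floor of the test at 1.88 ± 0.503 FPKM with PTH and 1.30 ± 0.376 FPKM with PBS.

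Sterol transport and efflux genes gave no call among 3 tested members, and 0 of them had an unadjusted limma p under 0.05. Abca1, the efflux pump and a classical LXR target, stood at 2.72, 2.58, 2.32 and 2.51 FPKM in PTH libraries 1 to 4, against 3.18, 4.01 and 3.06 FPKM in PBS libraries 1 to 3. All PTH values were below the PBS values, and the log2 fold change of -0.32 ± 0.14 (SE) had an adjusted p of 0.152 in limma. On this scale the change of so low a gene is understated. Npc1, which moves cholesterol out of lysosomes, stood at 13.9, 19.9, 20.5 and 15.5 FPKM in PTH libraries 1 to 4, against 21.0, 17.8 and 22.2 FPKM in PBS libraries 1 to 3. The Npc1 groups overlapped, and the log2 fold change was -0.22 ± 0.15 (SE, limma adjusted p of 0.330). Stard4, a cytosolic sterol carrier, averaged 13.3 ± 1.20 FPKM with PTH and 13.4 ± 0.507 FPKM with PBS. Mylip, an LXR-induced ubiquitin ligase, was too low to test, at 0.0968 to 0.304 FPKM with PTH and 0.280 to 0.420 FPKM with PBS.

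In the fatty acid arm Scd fell. Of all 10662 tested genes 5905 had a log2 fold change below 0, and of the 10 tested members 7 did. The median was -0.22, against -0.04 over all tested genes, and the summed level of the 11 members was 971.1, 1021, 973.8 and 944.4 FPKM in PTH libraries 1 to 4, against 1046, 1045 and 1056 FPKM in PBS libraries 1 to 3. The sums did not overlap. The summed FPKM of whole libraries did not overlap either, at 472621 to 509859 with PTH and 519845 to 532909 with PBS. Scd2 is also the most abundant member. It made up 385.8 to 451.5 FPKM of the members' sum in PTH libraries and 455.6 to 472.0 FPKM in PBS libraries.

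Scd, the stearoyl-CoA desaturase that makes monounsaturated fatty acids, stood at 68.9, 84.9, 71.9 and 70.1 FPKM in PTH libraries 1 to 4, against 91.0, 93.1 and 90.5 FPKM in PBS libraries 1 to 3. Every PTH library was below every PBS library, library 2 being nearest. Scd fell by 0.31 on the log2 scale (SE 0.08, limma adjusted p of 0.0481), with means of 74.0 ± 7.37 FPKM with PTH and 91.5 ± 1.35 FPKM with PBS (SD, n = 4 and 3). Of the 7 fits without 1 library, Scd kept its call only in that without PTH library 2 (adjusted p of 0.00696 to 0.174). The value was -0.03 once the mitochondrial share entered as a covariate (limma adjusted p of 0.937), with the replicate block -0.28 (adjusted p of 0.123) and after quantile normalization -0.25 (0.0639). Scd2, its rodent paralogue, averaged 406.2 ± 30.7 FPKM with PTH and 463.2 ± 8.25 FPKM with PBS, without overlap, and its log2 fold change of -0.19 ± 0.07 (SE) missed the threshold (limma adjusted p of 0.104). Reads shared between these related genes could be split by the counting, so the division between them is uncertain. Scd2 was the only tested member without a human counterpart transcript matched by symbol, although the labels name a human line. The species of the reads was not tested.

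The enzymes that make palmitate gave no call. Acly, which frees acetyl-CoA from citrate, averaged 140.4 ± 7.98 FPKM with PTH and 136.9 ± 1.33 FPKM with PBS, and Acaca, the acetyl-CoA carboxylase, 26.2 ± 0.999 and 27.3 ± 0.422 FPKM. The 95% intervals of their log2 fold changes, -0.11 to 0.18 and -0.22 to 0.09, were among the narrowest. Fasn, fatty acid synthase, was above the PBS range in all PTH libraries, at 90.9 ± 8.77 FPKM with PTH and 80.0 ± 2.26 FPKM with PBS, with an adjusted p of 0.161 in limma. Acss2, which makes acetyl-CoA from acetate, averaged 10.3 ± 1.89 FPKM with PTH and 12.7 ± 0.983 FPKM with PBS, a log2 fold change of -0.29 with overlapping groups.

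Among the other elongation and desaturation genes none was called. Elovl1, an elongase of saturated chains, averaged 57.7 ± 6.19 FPKM with PTH and 68.4 ± 8.10 FPKM with PBS, and Elovl5, an elongase of polyunsaturated chains, 42.7 ± 7.61 and 55.7 ± 8.99 FPKM. Elovl6, the elongase of palmitate, was listed at 0 in all 4 PTH libraries and in 2 of 3 PBS libraries, with 0.331 FPKM in PBS library 2. Fads2, the first desaturase of the polyunsaturated pathway, stood at 115.1, 79.8, 99.7 and 89.1 FPKM in PTH libraries 1 to 4, against 74.8, 71.5 and 76.4 FPKM in PBS libraries 1 to 3. All PTH values exceeded the PBS values, and the log2 fold change of 0.35 ± 0.12 (SE) had an adjusted p of 0.0797 in limma. Fads1, the next desaturase, stood at 29.5, 38.5, 31.0 and 33.4 FPKM in PTH libraries 1 to 4, against 39.9, 38.05 and 39.4 FPKM in PBS libraries 1 to 3. PTH library 2 lay inside the PBS range and the others below it, and the log2 fold change was -0.24 ± 0.10 (SE, limma adjusted p of 0.122).

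Fads2 exceeded Fads1 by 3.90, 2.07, 3.21 and 2.67 times in PTH libraries 1 to 4, against 1.87, 1.88 and 1.94 times in PBS libraries 1 to 3, a description of a pair chosen after its values were seen. This ratio is taken within a library and so does not depend on the scaling between libraries. It can still move with base composition, since the human counterparts have 60.7% GC for Fads2 and 50.1% for Fads1. After the correction for GC content described below, the log2 fold changes were 0.22 for Fads2 and -0.22 for Fads1. With the mitochondrial share as a covariate they were -0.27 and 0.18. In the human RefSeq table FADS1 starts at 61817003 on the minus strand of chromosome 11 and FADS2 at 61816203 or 61816404 on the plus strand, so their first 800 or 599 bases face each other on opposite strands. Whether the authors' counting used strand is not given in the sources used here, and without it reads from such a stretch cannot be told apart.

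**Figure D3:**
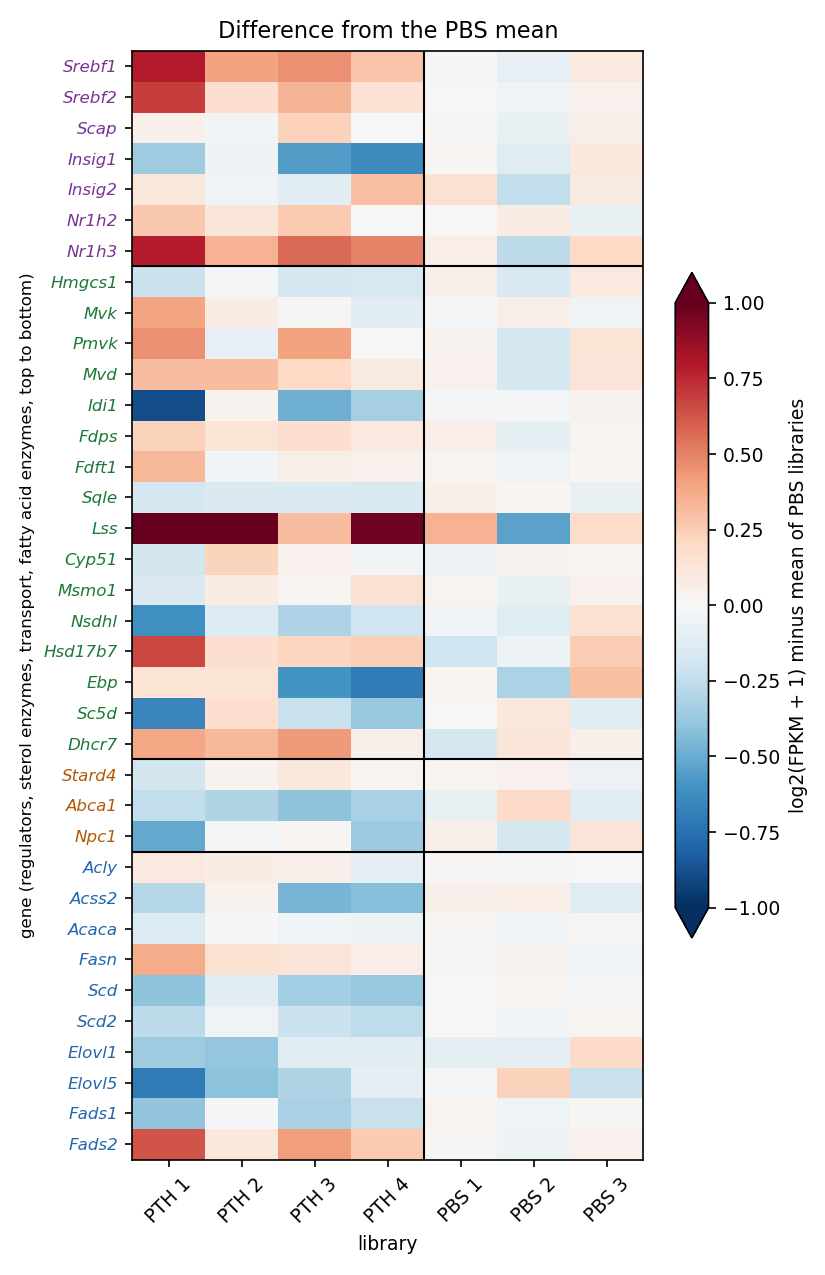
Difference of log2(FPKM + 1) from the mean of the PBS libraries (color scale, values beyond 1 drawn at the limit) for the 36 tested members in rows, by role, and the 7 libraries in columns, PTH left of PBS. PTH library 1 shows the strongest colors and PTH library 2 the palest among the PTH libraries, and Lss is pale in PTH library 3.

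The size of the difference depended on the PTH library. PTH library 1 lay farthest from the PBS mean in 26 of 36 members (72.2%), against 53.2% of all tested genes, and PTH library 2 lay nearest in 17 (47.2%), against 43.6% of all tested genes. The first had the lowest mitochondrial share of the PTH libraries, 0.867%, and the second the highest, 3.61%. The part of that share in the members' values was not tested apart from the hormone: with it as a covariate 0 of 36 members were called, and 1 of all 10662 genes was. Its values do not overlap between the groups, so it and the hormone cannot be told apart.

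Members with more GC-rich transcripts had higher fold changes, as genes in general did. Across the 35 tested members with a human counterpart transcript, the log2 fold change and its GC content had a Spearman correlation of 0.595, against 0.470 across 9434 tested genes. Genes share the same 7 libraries, so this is a description. Among the 21 members above the median GC content of all tested genes (48.7%), 14 had a value above 0, and among the 14 at or below it 5 did. Over all tested genes, 2959 of 4717 above that median and 1259 of 4717 at or below it had a value above 0. Srebf1, at 64.7% GC, and Scd, at 47.1%, stood on different sides of that median. After correction for GC content Srebf1 kept its call with a log2 fold change of 0.30 (limma adjusted p of 0.0404), while Scd had -0.24 and an adjusted p of 0.0531. Msmo1, at 38.1% GC, had 0.29 and an adjusted p of 0.0320 there, against 0.03 and 0.844 without the correction. After it 2 members were called higher and 0 lower, with 4.95% of all genes higher and 5.56% lower. A limma fit of the same genes without correction called 2 higher, 1 regulator and 1 sterol pathway enzyme, and 1 fatty acid enzyme lower.

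**Figure D4:**
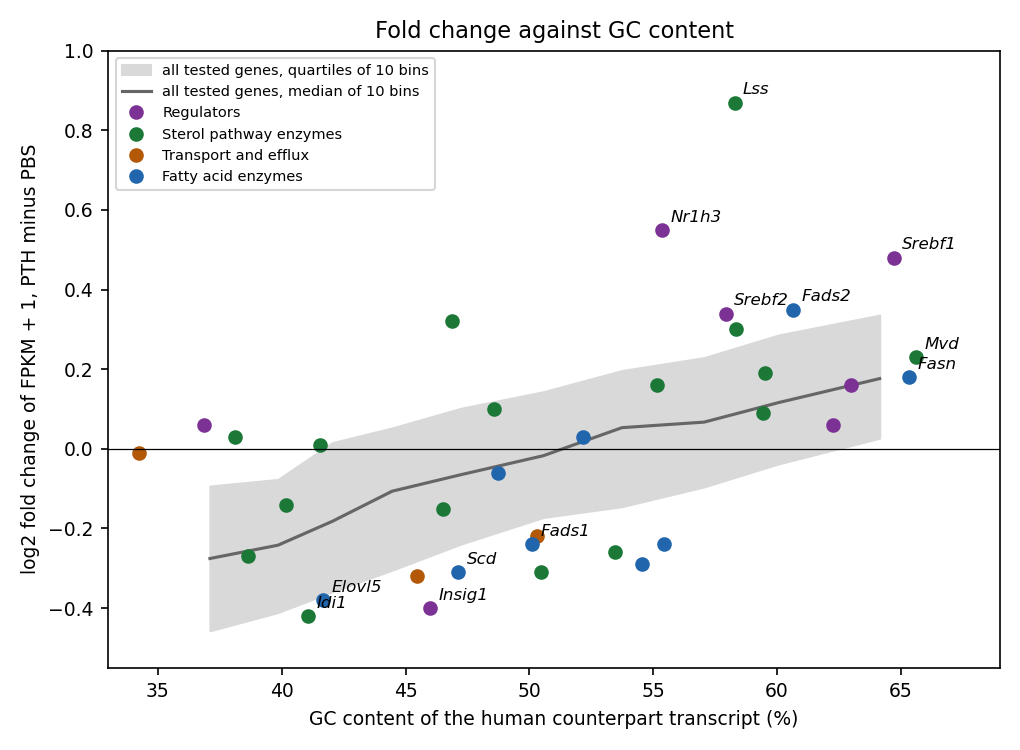
Log2 fold change (y axis, PTH minus PBS) of 35 members against GC content (x axis, percent, of the transcript of the human counterpart), colored by role, over the median and quartiles of all tested genes in 10 bins of GC content. The median line climbs from -0.28 in the lowest bin to 0.18 in the highest, and Lss, Nr1h3, Srebf1, Srebf2 and Fads2 lie above it while Insig1 and Scd lie below.

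The authors' own test called more members. By the authors' deposited table, 3 of the 36 tested members had an FDR under 0.05 with a higher value (Srebf1, Srebf2 and Fads2) and 4 with a lower value (Insig1, Scd, Elovl5 and Abca1). At that level 7.87% of all tested genes were higher in the authors' deposited table and 15.4% lower. Lss had a log2 fold change of 0.88 but an FDR of 0.417 in the authors' deposited table.

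In the lists of other genes of these pathways the calls were lower ones, and lower calls also outnumbered higher ones over all tested genes (7.96 and 3.45%). Among 19 tested other sterol genes 1 fell and none rose. Their median log2 fold change was -0.06, and 3 were higher and 4 lower at an unadjusted limma p under 0.05, beside 12.2% higher and 21.7% lower over all tested genes. The gene that fell was Rnf139, an endoplasmic reticulum ubiquitin ligase of sterol feedback, at 8.38, 16.0, 12.2 and 12.0 FPKM in PTH libraries 1 to 4, against 19.6, 21.9 and 19.8 FPKM in PBS libraries 1 to 3. Every PTH value was below the PBS values, and Rnf139 fell by 0.73 on the log2 scale (SE 0.18, limma adjusted p of 0.0412). With the mitochondrial covariate its value was 0.22 (adjusted p of 0.640), and with the replicate block -0.74 (0.0897). The sterol enzymes Acat2, Ggps1, Tm7sf2 and Lbr, and Mbtps1 and Mbtps2, the proteases that cut SREBF proteins, gave no call.

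Of 20 tested other fatty acid and glycerolipid genes 4 fell and none rose, beside 7.96% lower and 3.45% higher over all tested genes. The median was -0.18, and 1 was higher and 8 lower at an unadjusted limma p under 0.05, beside 12.2% higher and 21.7% lower over all tested genes. Hacd2, a dehydratase of the elongation cycle, stood at 17.6, 17.5, 17.8 and 20.7 FPKM in PTH libraries 1 to 4, against 26.3, 24.0 and 28.8 FPKM in PBS libraries 1 to 3. The groups did not overlap, and Hacd2 fell by 0.50 on the log2 scale (SE 0.10, limma adjusted p of 0.0284). Acsl1, an acyl-CoA synthetase, stood at 17.2, 19.0, 18.0 and 18.3 FPKM in PTH libraries 1 to 4, against 23.3, 24.0 and 23.7 FPKM in PBS libraries 1 to 3, and fell by 0.37 (SE 0.07, adjusted p of 0.0292). Acsl4, the synthetase that prefers arachidonate, averaged 27.1 ± 3.17 FPKM with PTH and 37.1 ± 1.07 FPKM with PBS and fell by 0.45 (SE 0.10, adjusted p of 0.0353). Oxsm, an enzyme of mitochondrial fatty acid synthesis, averaged 1.53 ± 0.117 FPKM with PTH and 2.89 ± 0.513 FPKM with PBS and fell by 0.62 (SE 0.16, adjusted p of 0.0451). These 4 genes have human counterparts of 37.4 to 45.1% GC, below the 48.7% median, and after GC correction the limma adjusted p was 0.0912 for Hacd2, 0.0402 for Acsl1, 0.0993 for Acsl4 and 0.0653 for Oxsm. With the mitochondrial covariate the log2 fold change was -0.39 for Hacd2, -0.21 for Acsl1, -0.05 for Acsl4 and -0.73 for Oxsm, and none of the 4 was called with it or with the replicate block.

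Of 3 tested other LXR targets 1 fell and none rose, beside 7.96% lower and 3.45% higher over all tested genes. Lpcat3, which loads polyunsaturated chains into phospholipids, stood at 75.6, 98.2, 90.6 and 79.3 FPKM in PTH libraries 1 to 4, against 112.4, 116.3 and 112.0 FPKM in PBS libraries 1 to 3. No PTH library reached the PBS range, and Lpcat3 fell by 0.41 on the log2 scale (SE 0.09, limma adjusted p of 0.0391). With the mitochondrial covariate its value was -0.05 (adjusted p of 0.911), with the replicate block -0.37 (0.0983) and after quantile normalization -0.34 (0.0506). The efflux transporter Abcg1 and the lipid transfer protein gene Pltp had log2 fold changes of -0.27 and 0.32 without a call. Abcg1 was also counted among the other sterol genes. Of the 6 genes that fell in these lists, 5 kept their call without PTH library 1 and 6 without PTH library 2, and without PTH library 4 only Hacd2 did. None kept it without PTH library 3 or without any 1 of the PBS libraries.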

How the data were processed

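Whole-transcript RNA of 4 PTH and 3 PBS libraries was analysed, grouped by the labels. The authors deposited FPKM per gene and library in a table of genes with higher values and a table of genes with lower values, together 22062 rows with rat Ensembl identifiers. The submitters' processing notes name Bowtie 0.12.2 and mm8, a mouse build, while no counting method, annotation or scaling is named. The identifiers, build and labelled species therefore differ, and how that moves single FPKM values is unknown. The authors also deposited a log2 fold change, which was handled as a score in the table where some values are infinite, and a p-value with its FDR per gene, from a test that is not named.

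Where rows shared a symbol, the one of highest mean was kept. The 10662 genes averaging 1 FPKM or more were tested with limma 3.58.1 in R 4.3.3, two-sided with a variance trend, on log2(FPKM + 1), so the change of low genes is understated. P-values were adjusted by Benjamini-Hochberg over all tested genes, and a call was an adjusted p under 0.05. The fit was checked on simulated data. Intervals are 95% intervals of the same fit. GC content is that of the longest coding GENCODE transcript of the human counterpart, and its correction, chosen after seeing the data, removed from each library a lowess curve of its deviations on GC content.

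Values per library are given for each called member, for the 2 members with the smallest p in each role, for Srebf1, Srebf2, Scap and Insig1, and for called genes of the other lists, up to 4 per list. Values per library of Idi1, Ebp and Fads1 were added after they were seen. The members and lists were chosen with earlier results of these data known. Alternatives changed the pseudocount, the filter, the scaling, the variance model (array weights were estimated gene by gene), the covariates, and the libraries included.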

Additional observations from a re-analysis of the deposited data

Results flagged for a closer look

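In 1 of the 37 members examined, a PTH library stood apart from the other PTH libraries. Hsd17b7, a ketosteroid reductase of the sterol pathway, stood at 2.63 FPKM in PTH library 1, against 1.56 to 1.69 FPKM in the other PTH libraries, and its gap to the nearest was 0.878 of the group's range, past Dixon's critical value. Chance flags about 1 in 20 groups in this way. PTH library 1 was also the library with the lowest mitochondrial share, 0.867%, and its part in this value was not tested.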

How the results depend on the processing

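Of 793 values for 42 named genes under the alternatives, 648 kept their direction and side of the threshold, 74 lost a call, 25 gained one and 46 changed sign. The cause was not tested for any. Depth limits low genes, and FPKM give no counts to bound it. Without a filter 212 genes were higher and 553 lower, without the variance trend 184 and 441, after quantile normalization 664 and 573, after median centring 593 and 554, and with equal sums without mitochondrial genes 611 and 584. With the first 2 of these settings 0 regulators, 0 fatty acid enzymes and 0 other sterol genes were called, and without the trend also 0 other LXR targets. With each of the 3 scalings 0 fatty acid enzymes were lower and 1 other sterol gene was higher, and with quantile normalization 0 other LXR targets were lower. Array weights gave 1958 higher and 3245 lower genes, among them 4 regulators, 1 sterol enzyme and 2 fatty acid enzymes higher, and 1 regulator, 5 sterol enzymes, 1 transport gene and 5 fatty acid enzymes lower. Of the other lists, weights gave 3 sterol genes, 3 fatty acid genes and 1 LXR target higher, and 6, 9 and 2 lower. With the mitochondrial share as a covariate 0 genes were higher and 1 lower, and no member or other listed gene was called (0). After GC correction, added after seeing the data, 467 were higher and 525 lower, with 1 sterol enzyme and 2 other sterol genes higher, 0 fatty acid enzymes lower and 1 other fatty acid gene lower. The labels do not state whether the replicate numbers pair the libraries. Deviations from the group means were hardly correlated between same-numbered libraries (-0.007, 0.001 and -0.037). The replicate block gave 2 higher and 17 lower genes and 0 calls in every list. Leaving out 1 library gave 3 to 825 higher and 25 to 1925 lower genes, the fewest without PBS library 1 and the most without PTH library 2. It gave 0 to 2 regulators higher and 0 to 1 lower, 0 sterol enzymes higher and 0 to 1 lower, 0 to 1 fatty acid enzymes higher and 0 to 4 lower, and 0 transport genes. In the other lists it gave 0 to 3 sterol genes in each direction, 0 to 1 fatty acid genes higher and 0 to 9 lower, and 0 to 1 LXR targets lower. The log2 fold change changed sign with the mitochondrial covariate for Srebf1 (-0.07), Srebf2 (-0.36), Scap (-0.04), Nr1h2 (-0.10), Hmgcs1 (0.08), Mvk (-0.41), Pmvk (-0.48), Idi1 (0.64), Fdft1 (-0.34), Nsdhl (0.31), Hsd17b7 (-0.29), Sc5d (0.57), Stard4 (0.27), Npc1 (0.27), Acly (-0.07), Acaca (0.09), Fasn (-0.14), Scd2 (0.02), Elovl5 (0.12), Fads1 (0.18), Fads2 (-0.27) and Rnf139 (0.22). It did so after GC correction for Scap (-0.09), Hmgcs1 (0.08), Mvk (-0.02), Stard4 (0.33) and Fasn (-0.01). Stard4 was at 0.04 with equal sums, 0.07 with median centring, 0.05 with quantile normalization and 0.06 with weights, Acaca at 0.01 with median centring and 0.00 with quantile normalization, and Insig2 at -0.11 with weights. With the block Insig2 and Msmo1 were at -0.01. Without 1 library Insig2 ran from -0.06 to 0.14, Msmo1 from -0.01 to 0.08, Stard4 from -0.04 to 0.05, Mvk from -0.01 to 0.16 and Cyp51 from -0.05 to 0.08.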
